A study of Homo sapiens with 3 samples.

Results

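The lysosomal cathepsin genes *CTSD*, *CTSB*, *CTSA*, *CTSL*, *CTSF*, *CTSZ*, *CTSS* and *CTSH* were examined for sites occupied by PRCC-TFE3. All peaks that lay inside any of these 8 genes or within 10 kb of it were taken, whatever their strength. The windows searched in this way added up to 292 kb. They held 34 of the 109205 peaks of the first ChIP replicate, 31 of the 81300 peaks of the second, and 0 of the 286 peaks of input DNA. Chromatin immunoprecipitation sequencing (ChIP-seq) had been performed in HK-2, a human kidney cell line derived from proximal tubule. The cells expressed HA-tagged PRCC-TFE3 when doxycycline was present, and PRCC-TFE3 is a fusion of PRCC with the transcription factor TFE3 that occurs in TFE3-rearranged renal cell carcinoma. Doxycycline was given to all of them, the input cells included, at 0.2 µg/ml for 24 h. The HA tag was used for precipitation, so it was directed at the induced fusion and not at endogenous TFE3. The samples used here held no control precipitation, so signal that does not come from the fusion cannot be told apart. Chromatin was cut with micrococcal nuclease according to the methods of the study. The data comprised 2 libraries of HA-PRCC-TFE3 ChIP, numbered here as they were labelled, and 1 of input DNA. Cells without doxycycline were not analysed here, and whether the line was 1 clone is not stated in the sources used here.

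Depth was estimated from the deposited lists at 12235754 tags for replicate 1, 7418533 for replicate 2 and 21695262 for input DNA. Coordinates are those of hg19, the build that the submitters' processing notes give. In this build *CTSD* lies on chromosome 11 from 1773982 to 1785222, *CTSF* on chromosome 11 from 66330935 to 66336312, and *CTSA* and *CTSZ* on chromosome 20 from 44519591 to 44527459 and from 57570242 to 57582309. *CTSL* lies on chromosome 9 from 90340974 to 90346384, *CTSS* on chromosome 1 from 150702672 to 150738433, *CTSH* on chromosome 15 from 79213400 to 79241916, and *CTSB* on chromosome 8 from 11700034 to 11725646. *CTSA* and *CTSL* are on the plus strand and the others on the minus strand. Exons, introns and untranslated parts were not assigned, because no hg19 annotation was used here. For the same reason, the other cathepsin genes were not analysed here.

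Cathepsins are proteases of the lysosome, the acidic compartment in which a cell digests proteins taken up from outside or delivered by autophagy. *CTSD* encodes an aspartic protease and *CTSA* a serine carboxypeptidase that also protects neuraminidase and beta-galactosidase. The other members encode cysteine proteases of the papain family. TFE3 belongs to the MiT/TFE family, whose members bind E-box letters such as CACGTG and are known to switch on lysosomal genes, cathepsin genes among them, when they enter the nucleus. Proximal tubule cells take up filtered protein and degrade it in lysosomes.

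Promoter sequences are shown for 4 members, because they differ in the E-box letters. They run from 250 bases before to 50 bases after the start of the gene in RefSeq (build GRCh38.p14) and are given 5′ to 3′ along the gene, with each CACGTG in capitals. The window of *CTSA* is chr20:45891085-45891384 on the plus strand, that of *CTSD* chr11:1763878-1764177 on the minus strand, that of *CTSF* chr11:66568557-66568856 on the minus strand, and that of *CTSL* chr9:87725869-87726168 on the plus strand.
CTSA: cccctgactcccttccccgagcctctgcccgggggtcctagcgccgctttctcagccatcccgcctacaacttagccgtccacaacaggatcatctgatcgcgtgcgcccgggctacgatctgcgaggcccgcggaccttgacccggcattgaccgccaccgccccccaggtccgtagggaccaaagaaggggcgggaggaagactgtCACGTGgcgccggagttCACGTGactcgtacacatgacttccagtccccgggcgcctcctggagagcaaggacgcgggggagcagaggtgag
CTSD: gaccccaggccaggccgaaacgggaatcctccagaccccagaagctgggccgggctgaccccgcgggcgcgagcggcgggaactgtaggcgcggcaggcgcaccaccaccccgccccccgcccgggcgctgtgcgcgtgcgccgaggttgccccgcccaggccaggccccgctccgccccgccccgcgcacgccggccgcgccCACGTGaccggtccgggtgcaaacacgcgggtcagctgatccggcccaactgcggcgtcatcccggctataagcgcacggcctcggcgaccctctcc
CTSF: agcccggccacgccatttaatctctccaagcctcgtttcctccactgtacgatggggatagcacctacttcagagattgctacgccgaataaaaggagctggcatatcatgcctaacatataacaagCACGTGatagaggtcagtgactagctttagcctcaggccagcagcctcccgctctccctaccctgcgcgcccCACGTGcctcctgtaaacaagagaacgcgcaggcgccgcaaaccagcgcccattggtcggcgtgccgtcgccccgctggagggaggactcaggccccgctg
CTSL: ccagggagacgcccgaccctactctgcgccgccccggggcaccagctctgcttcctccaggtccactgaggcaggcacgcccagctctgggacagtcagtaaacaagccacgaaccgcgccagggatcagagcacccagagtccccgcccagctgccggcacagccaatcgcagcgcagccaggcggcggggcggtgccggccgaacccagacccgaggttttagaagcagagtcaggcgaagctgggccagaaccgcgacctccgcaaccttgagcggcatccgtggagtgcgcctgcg
The table of promoters held 6 of the 8 members, which were these 4, *CTSZ* and *CTSH*. Searched on both strands, CACGTG was present in 3 of the 6, compared with 7.26% of all 35116 promoters in the table. It began 42 and 25 bases before the start of *CTSA*, 47 bases before that of *CTSD*, and 123 and 51 bases before that of *CTSF*. The longer form TCACGTGA, which contains CACGTG, was present in *CTSA* alone of the 6 and in 0.980% of all promoters. CATGTG was likewise present in *CTSA* alone, as CACATG on the printed strand 12 bases before the start, and in 11.1% of all promoters. The AP-1 letters TGANTCA were present in 0 of the 6 and in 7.71% of all promoters. The windows of *CTSL*, *CTSZ* and *CTSH* held none of the 4 motifs. These windows are on another build than the peaks and were not overlaid with them, so a match is a description of the letters only.

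To determine how many sites both replicates gave, overlapping peaks of the MACS (narrowPeak) lists were merged, and regions in which both replicates had a peak were termed shared. The cathepsin windows held 38 merged regions, of which 26 (68.4%) were shared. Over the whole genome 59.8% of 117702 merged regions were shared. Of the 12 others, 7 had a peak in replicate 1 only and 5 in replicate 2 only, and their fold enrichment ranged from 3.51 to 8.56. Fold enrichment here is the peak caller's ratio at the summit, the point of highest signal. By the summit in replicate 1, 13 of the shared regions lay upstream of the gene start, 11 inside the gene and 2 beyond its 3′ end. A region counted for a member may belong to a neighbouring gene as well. On the upstream side the neighbour is *SYT8* for *CTSD*, *DEFB136* for *CTSB* and *TUBB1* for *CTSZ*. The hg19 positions of neighbours were not used here, so how far these genes lie from the regions is not known.

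Shared regions were denser in these windows than along the genome. There were 8.91 of them per 100 kb, compared with 5.83 per 100 kb between 10 and 25 kb from the same genes and 2.32 per 100 kb over chromosomes 1 to 22 and X. They were spread unevenly among the genes, with 6 at *CTSD*, 5 each at *CTSB* and *CTSZ*, 4 at *CTSA*, 3 at *CTSH*, and 1 each at *CTSL*, *CTSF* and *CTSS*. Within 25 kb there were 7 each at *CTSD* and *CTSZ*, 6 each at *CTSB* and *CTSL*, and 5 each at *CTSA* and *CTSH*. At *CTSF* there were 3 and at *CTSS* 1. The higher density close to the genes thus holds for the pooled windows and not for each gene, *CTSL* being the clearest exception. As a background, the genome was cut into tiles of the same length as each window, gaps and gene-poor parts included, and the median tile held 0 shared regions. At least as many shared regions were present in 1.18% of tiles for *CTSD*, 2.56% for *CTSZ*, 3.85% for *CTSA* and 5.34% for *CTSB*. In contrast, 16.4% of tiles reached the number at *CTSH*, 32.3% those at *CTSL* and *CTSF*, and 48.6% that at *CTSS*.

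**Figure D1:**
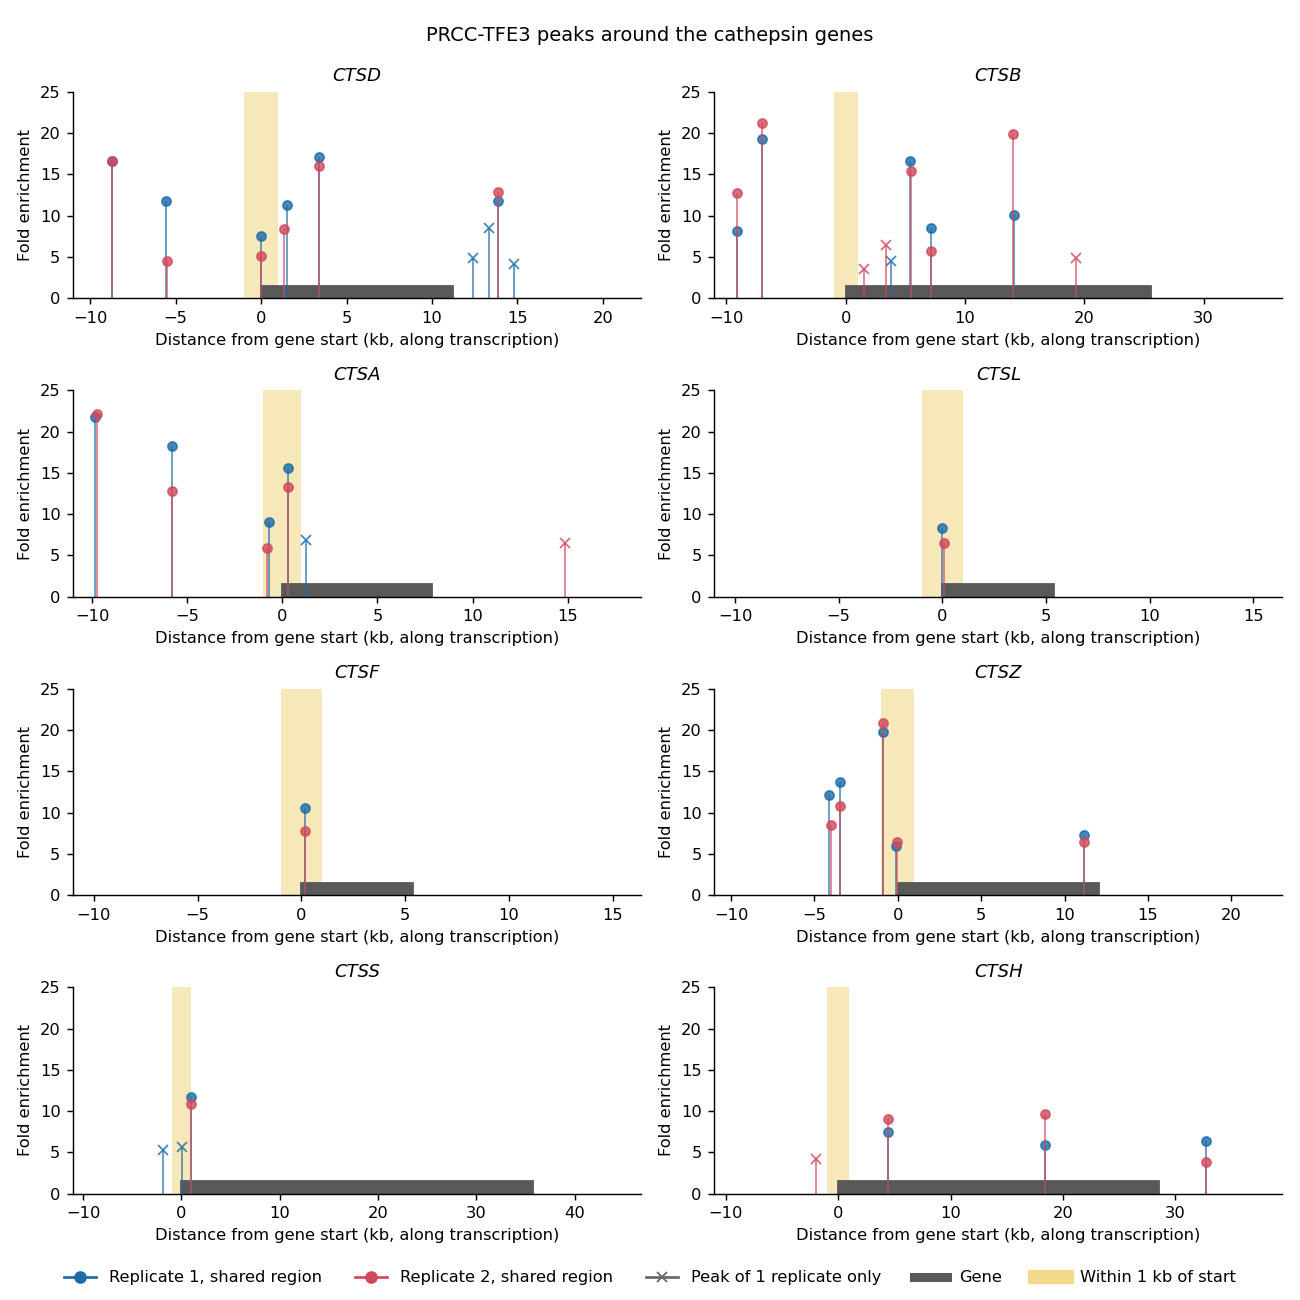
Fold enrichment of each peak (y axis, ratio) against the distance of its summit from the gene start in kb along the direction of transcription (x axis), with replicate 1 in blue and replicate 2 in red. Circles are shared regions and crosses peaks of 1 replicate only, the dark bar is the gene, and the yellow band marks 1 kb on either side of the start, which holds a shared region at every gene but *CTSB* and *CTSH*.

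Next, the starts of the genes were examined. For 6 of the 8 genes, *CTSD*, *CTSA*, *CTSL*, *CTSF*, *CTSZ* and *CTSS*, a shared region had its summit within 1000 bp of the start as listed. The count would be 7, with *CTSH*, if the start of its MANE Select transcript, the reference transcript in GENCODE release 44, were taken at the same place within the gene in hg19, which was assumed and not checked. The regions at the listed starts numbered 8, or 30.8% of all shared regions, in bands that made up 5.48% of the length searched. The lower of both replicates' fold enrichment had a median of 7.17 among the 8 regions at starts and of 9.29 among the 18 elsewhere, a difference that was not tested. The region at the start was the only or the strongest shared one at *CTSL*, *CTSF*, *CTSS* and *CTSZ*. The share of all genes with such a region, and the share of all shared regions that lie at gene starts, were not analysed here. Neither value can therefore be called particular to the cathepsin genes.

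*CTSA* had the strongest shared region of all members by the lower value. Its fold enrichment was 21.8 in replicate 1 and 22.2 in replicate 2, and the summits lay 9841 and 9770 bp upstream of the start, on chromosome 20 from 44509520 to 44510075. Of all shared regions, 96.1% had a lower value. The windows of this region held 49 and 38 ChIP tags in the replicates and 0 input tags in both lists. Another upstream region, 5814 and 5801 bp from the start, had fold enrichments of 18.3 and 12.8. Both regions, and those nearer to the start, may belong to other genes as well. *NEURL2* is the next gene to *CTSA* on this side and *PLTP* the one on the other, and their hg19 positions were not used here. A region may therefore lie beyond the next gene, nearer to one that is not named. The region nearest to the start, from 44519639 to 44520150, had its summits 303 and 317 bp inside the gene. It reached 15.6 and 13.3, and 42 and 27 tags stood against 0 input tags. The gene as listed is 383 bp longer than its MANE Select transcript, so the distance depends on which start is taken. A weaker shared region lay 680 and 790 bp upstream, with values of 9.09 and 5.90. A peak inside the gene, 1268 bp from the start, was called in replicate 1 only, at 6.84, with 18 ChIP tags and 7 input tags. The peak 14868 bp from the start, past the 3′ end, was in the narrowPeak list of replicate 2 only, at 6.52, but a BED peak was present there in both replicates, with 9 and 12 ChIP tags and 3 input tags.

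*CTSD* had the most shared regions. The strongest by the lower value lay upstream, with summits 8731 and 8730 bp from the start, on chromosome 11 from 1793768 to 1794198. Its fold enrichments were 16.6 and 16.7, and 33 and 28 tags stood against 0 input tags. Inside the gene, a region 3396 and 3400 bp from the start reached 17.1 and 16.0, the highest of the gene in replicate 1, and another, 1493 and 1344 bp from it, reached 11.2 and 8.42. The region at the start itself, from 1785080 to 1785386, was among the weaker ones. Its summit was 33 bp upstream of the start in replicate 1 and 17 bp inside it in replicate 2, and its fold enrichments were 7.49 and 5.13. The −log10 q of this region was 9.69 in replicate 1 and 4.50 in replicate 2, and a BED peak, with 14 tags, was present in replicate 1 alone. It was thus no shared region in the BED lists or with q below 1e-05. Within this gene the replicates were farthest apart at the region 5554 and 5501 bp upstream, at 11.8 and 4.49. The last shared region lay past the 3′ end, 13835 and 13865 bp from the start, at 11.8 and 12.8. The 3 peaks of *CTSD* called in replicate 1 only also lay past the 3′ end, with values from 4.18 to 8.56.

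Cathepsin B is a cysteine protease with both endopeptidase and dipeptidyl carboxypeptidase activity. *CTSB* had 5 shared regions but none at its start. The nearest, with summits 5434 and 5468 bp inside the gene, had fold enrichments of 16.6 and 15.4. The strongest lay 6991 and 7011 bp upstream, at 19.3 and 21.2, with 37 and 32 tags against 0 input tags, and 94.0% of all shared regions had a lower value. Closer to the start, 3 peaks were called in 1 replicate only. They lay 3827 bp inside the gene in replicate 1, at 4.56, and 3394 and 1550 bp inside in replicate 2, at 6.42 and 3.51, the last being the lowest fold enrichment in any of the windows. A further peak of replicate 2 only lay 19298 bp inside, at 4.81. A region 14116 and 14066 bp inside the gene was the one at which replicate 2 exceeded replicate 1 the most, at 19.9 against 10.1. The other 2 shared regions, 7158 and 7154 bp inside and 9112 and 9093 bp upstream, had values of 8.56 and 5.78 and of 8.14 and 12.7.

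*CTSZ*, which encodes a carboxypeptidase also called cathepsin X, had 5 merged regions, and all 5 were shared. Of the genes with more than 1 merged region, it was the only one for which this was so. The strongest lay 858 and 885 bp upstream of the start, on chromosome 20 from 57582877 to 57583426. It reached 19.8 and 20.9, with 45 and 37 tags against 0 input tags. It was the strongest region within 1000 bp of any of the starts. The region nearest to the start, 83 and 43 bp upstream of it, was weaker, at 5.91 and 6.40, with 21 and 16 tags against 1 input tag. A pair of neighbouring upstream regions, 3485 and 3450 bp and 4109 and 4022 bp from the start, had values of 13.7 and 10.8 and of 12.2 and 8.50. The only shared region inside the gene, 11188 and 11196 bp from the start, had values of 7.33 and 6.49.

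*CTSL* and *CTSF*, which encode cysteine proteases that cut within protein chains, each had a single site within 10 kb, and it was at the start. Within 25 kb there were 6 shared regions at *CTSL* and 3 at *CTSF*. At *CTSL* the summits lay 7 bp upstream of the start in replicate 1 and 88 bp inside the gene in replicate 2, on chromosome 9 from 90340856 to 90341473, and the fold enrichment was 8.36 and 6.52. At *CTSF* they lay 182 and 181 bp inside, on chromosome 11 from 66335988 to 66336464, and it was 10.5 and 7.82. The gene as listed is 235 bp longer than its MANE Select transcript. Both sites had 21 tags in replicate 1, 12 in replicate 2 and 0 input tags. By the lower value, 39.4% of all shared regions were weaker than the one at *CTSL* and 52.9% were weaker than the one at *CTSF*. The *CTSF* promoter printed above holds CACGTG and that of *CTSL* does not, and whether these letters go with fold enrichment was not tested.

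*CTSS* encodes a cysteine protease known for its part in antigen presentation. Its only shared region lay 948 and 939 bp inside the gene, on chromosome 1 from 150737047 to 150737924, close to the limit that counts as the start. The fold enrichments were 11.8 and 10.9, with 23 and 17 tags against 1 input tag. A further peak nearer to the start, at 103 bp, was called in replicate 1 only, at 5.70 and with 15 tags against 0 input tags. So was a peak 1831 bp upstream, at 5.27. With 7418533 tags in replicate 2, peaks of this height cannot be taken as absent there.

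*CTSH*, which encodes an aminopeptidase, had 3 shared regions, among them the weakest of all 26 by the lower value. They had fold enrichments of 7.49 and 8.98, of 5.88 and 9.63, and of 6.42 and 3.85. The first of these was the nearest to the start, with summits 4444 and 4424 bp inside the gene as listed, on chromosome 15 from 79237276 to 79237656. The start used here matters for this gene. GENCODE release 44, on hg38, gives the gene the same span as the list, 28517 bp, but its MANE Select transcript begins 4528 bp inside that span. Coordinates were not converted between builds. If that transcript start were taken at the same place within the gene in hg19, the nearest region would lie within 1000 bp of it. This placement was assumed and not checked. The other regions lay 18429 bp inside the gene in both replicates, and 32762 and 32721 bp from the start, past the 3′ end. A peak 1989 bp upstream was called in replicate 2 only, at 4.21.

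Fold enrichment at the cathepsin regions was then set beside that of all sites. The lower of both replicates' values had a median of 8.46 among the 26 shared regions and ranged from 3.85 to 21.8. Among all 70426 shared regions the median was 7.65, with quartiles at 5.70 and 11.4. A value of at least 10 in both replicates was present at 12 of the 26 regions (46.2%), compared with 32.0% of all shared regions. The cathepsin regions therefore covered much of the general range, and whether their median differed from the rest was not tested.

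**Figure D2:**
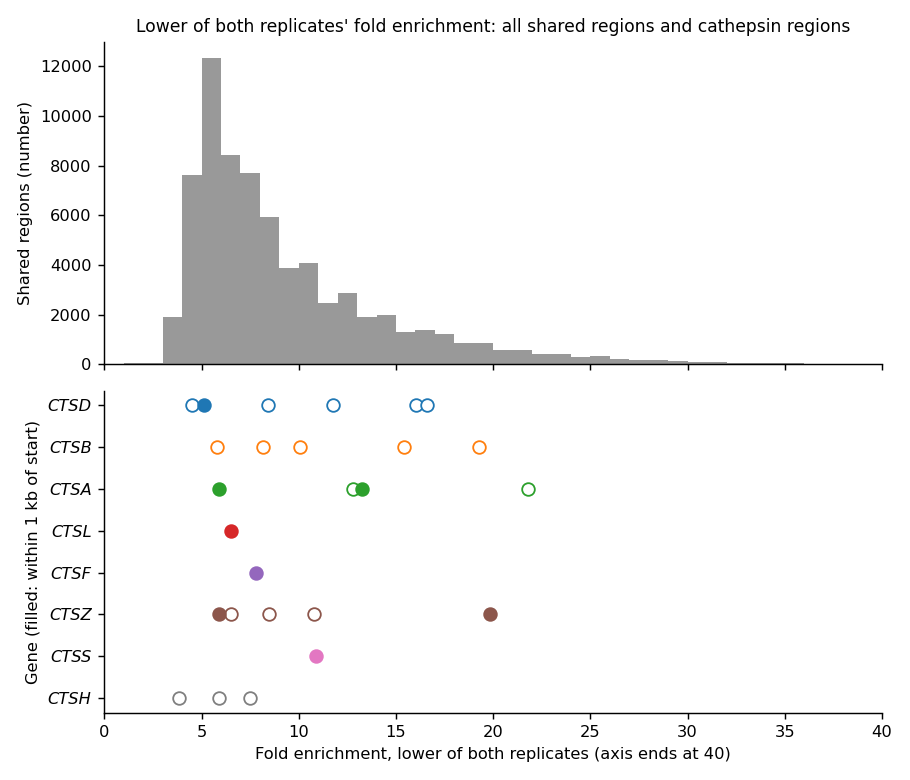
Number of all shared regions by fold enrichment, taken as the lower of both replicates (top), and the same value for each shared region of each gene (bottom, filled circles within 1 kb of the gene start). The 26 cathepsin regions lie between 3.85 and 21.8, and the strongest filled circle belongs to *CTSZ*.

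To assess agreement of the replicates, tags were compared at BED peaks, which had 1 width per list (208 and 212 bp), that could be matched between them. Of 55655 matched peaks in the genome, 23 lay in the cathepsin windows, with 609 tags in replicate 1 and 467 in replicate 2. Replicate 2 thus contributed 43.4% of these tags, compared with 39.8% over all matched peaks and 37.7% of the tags of both libraries. Its share was above that of all matched peaks at 14 of the 23. A two-sided exact binomial test against the split of all matched peaks was adjusted over all of them by the Benjamini-Hochberg method. It called 0 of the 23 peaks and 0% of all matched peaks. Before adjustment, 1 of the 23 had p under 0.05, and so did 2.20% of all matched peaks. It was the *CTSB* site 14110 bp inside the gene, with 21 and 33 tags, where replicate 2 exceeded the common split by 1.25 on the log2 scale (95% exact interval, 0.41 to 2.11, exact p = 0.00197, adjusted p = 1). At the other matched peaks the interval included 0, and it was wide. At *CTSF* and *CTSL*, with 21 and 12 tags each, it extended from -1.37 to 0.88. The test covers counting error between these libraries, and differences within such limits were not detectable at this depth. It left out peaks called in 1 list only, among them 10 cathepsin peaks of replicate 1. It therefore cannot show agreement at those peaks. Summits of the shared cathepsin regions lay a median of 28.5 bp apart between replicates and at most 149 bp, compared with a median of 31 bp over all shared regions.

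**Figure D3:**
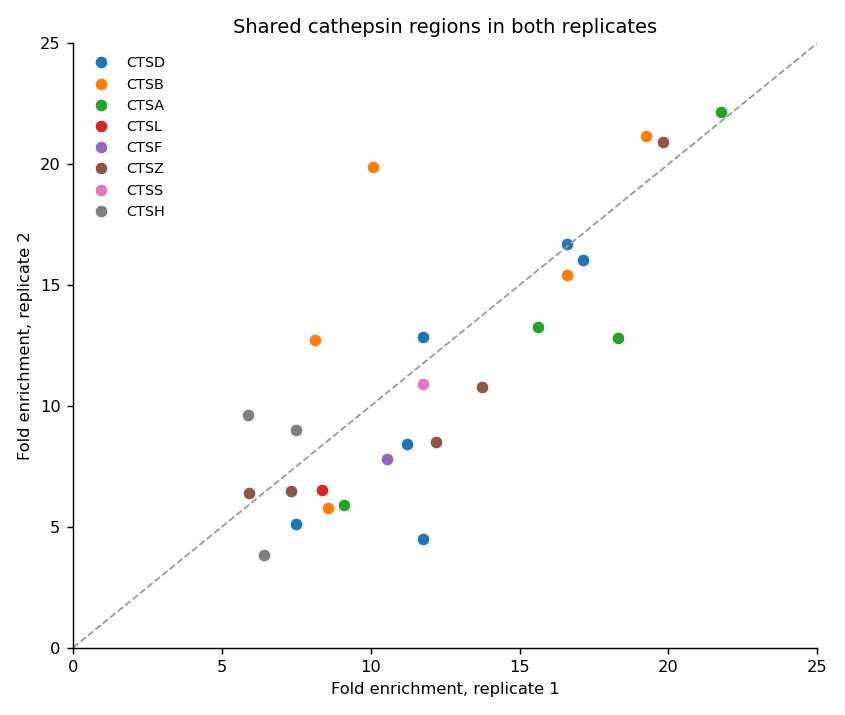
Fold enrichment of the 26 shared regions in replicate 1 (x axis) and replicate 2 (y axis), coloured by gene, with the line of equal values dashed. In 16 regions the value was higher in replicate 1, and the point farthest above the line is the *CTSB* site at 10.1 and 19.9.

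Finally, ChIP tags were set against input tags in the same BED peaks, each divided by its library total. Because peaks are called where ChIP exceeds input, these ratios describe the sites and carry no test. The 33 cathepsin peaks of replicate 1 held 750 ChIP tags and 34 input tags, a ratio of 39.1 (95% exact interval, 27.7 to 56.9), compared with 43.8 over all its BED peaks. The 23 peaks of replicate 2 held 467 and 14, a ratio of 97.6 (57.6 to 180), compared with 54.2. The lists did not hold the same peaks. The 10 peaks of replicate 1 without a match in replicate 2 had 141 ChIP tags and 17 input tags. At the 23 matched peaks the ratios were 63.5 (39.3 to 110) and 97.6, with 17 and 14 input tags. Gene by gene, the ratio was 30.1 (16.0 to 64.0) and 50.3 (20.7 to 159) at *CTSD*, 25.4 (14.5 to 48.5) and 108 (36.1 to 533) at *CTSA*, and 124 (33.7 to 1035) and 139 (37.4 to 1164) at *CTSZ*. It was 46.1 (19.3 to 144) and 158 (42.7 to 1321) at *CTSB*, 29.0 (9.35 to 145) and 49.7 (7.79 to 2078) at *CTSS*, and 58.5 (9.80 to 2380) and 76.0 (12.5 to 3117) at *CTSH*. At *CTSL* and *CTSF*, with 0 input tags, ChIP was at least 12.4-fold higher than input in replicate 1 and at least 11.7-fold higher in replicate 2, taken against a floor of 3 input tags per list. The intervals are wide because the input tags are few, and 1 input library served for both replicates.

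**Figure D4:**
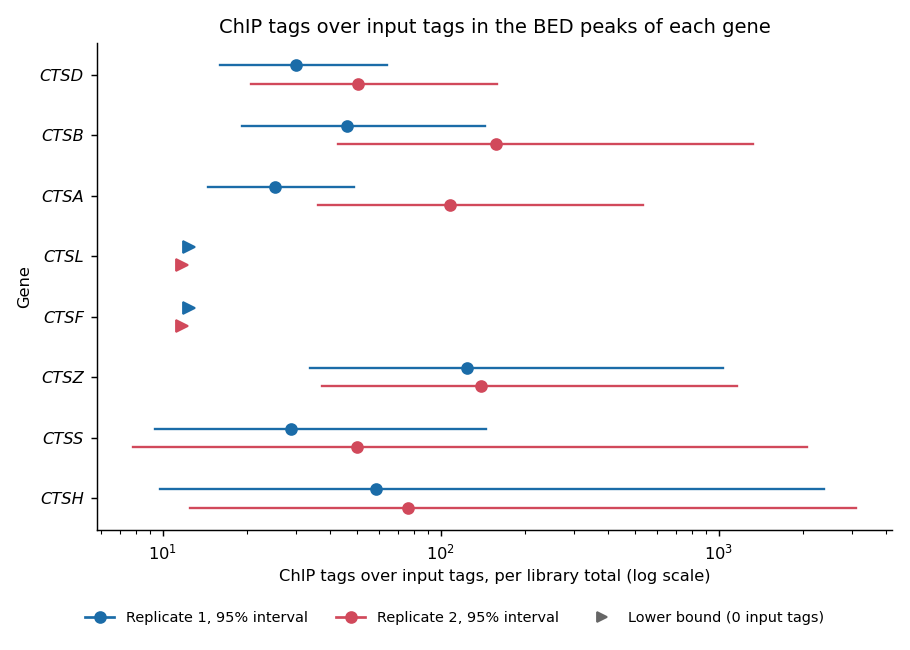
Ratio of ChIP tags to input tags per library total in the BED peaks of each gene (x axis, log scale), with exact 95% intervals, for replicate 1 in blue and replicate 2 in red. Triangles for *CTSL* and *CTSF* are lower bounds set by a floor of 3 input tags. All other intervals begin at 7.79 or higher, and for each gene the intervals of the replicates overlap.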

How the data were processed

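ChIP-seq peaks of 2 HA-PRCC-TFE3 libraries and 1 input DNA library were analysed. The authors called peaks for each sample separately, by MACS within Strand NGS and against input according to their methods. Aligner and duplicate handling are not given in the sources used here. The deposited narrowPeak lists give the fold enrichment ratio and −log10 p and −log10 q values, with a score of 10 times the latter, and end at q = 0.05. For its binding sites the paper reports a stringent p-value threshold, which was not applied to these lists here. The deposited BED lists, which have the layout of a HOMER table with displaced header names, were read by position. They hold, per the authors' peak finder, a count of ChIP tags in each peak as deposited. The authors also gave a signal, that is tags per 10000000 tags of the library, and fold ratios, p-values, a score and a focus fraction. The p-values and the focus fraction, which the authors gave, were not used here.

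Library totals were computed as tag counts over signal, and input tags per peak from the tag count and fold over input. All were whole within 0.1 tags (100% in each list). Peaks ended beyond the hg38 sequence on 16 of 25 chromosomes, so hg38 coordinates were not used with them, and the hg19 gene positions were those given with the gene list. Peaks overlapping by at least 1 bp were merged. Windows were the genes with 10 kb on either side.

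Matched BED peaks were mutually nearest overlapping peaks. Tests were two-sided exact binomial tests with Benjamini-Hochberg adjustment over all matched peaks. Simulated counts were used to check for false calls, and the share of simulated differences that was recovered is not reported here. Intervals are 95% exact (Clopper-Pearson) and cover counting error only. The paper calls the ChIP libraries biological replicates, and each p-value concerns these libraries only. All 8 genes were named, each with its nearest and its strongest shared region. Members and lists were chosen with earlier results of these data known. Analyses used Python 3.11.15, numpy 2.4.6, pandas 2.3.3 and scipy 1.17.1. Alternatives were the BED lists, stricter q, overlap, window, start distance, expected split, tag minimum, input total and leaving out a replicate. Other cathepsin genes, the positions of neighbouring genes and the share of all gene starts need an hg19 annotation and were not analysed here.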

Additional observations from a re-analysis of the deposited data

How the results depend on the processing

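In all, 33 alternative values were computed, and 5 of them moved beyond 1.5 times the count or beyond the spread between replicates. The number of shared regions, 26 within 10 kb, was 14 inside the genes alone and 40 within 25 kb, by construction. It was 23 to 24 with the BED lists, with q below 1e-05 and with summits within 100 bp, and each replicate alone had 31 or 34 regions. The number of genes with a shared region at the start was 5 with the BED lists and with q below 1e-05, which lost *CTSD*, and 5 with a limit of 500 bp, which lost *CTSS*. Within 2500 bp it was 6, and it was 7, with *CTSH*, when the start was moved to that of the MANE Select transcript where the listed span equals that of GENCODE, a setting chosen after the data were seen that assumes the same gene model in hg19. The median fold enrichment, 8.46, was 10.1 with q below 1e-05, since weak regions were removed, and 60.3 with the BED lists, whose fold is over input tags and on another scale.

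Pooled over both replicates, ChIP tags were 56.0 times input tags. This ratio ranged from 39.1 without replicate 2 to 97.6 without replicate 1, and it was 76.6 at matched peaks, a setting chosen after the data were seen. The cause was not tested. The exact binomial test called 0 cathepsin peaks under each of its alternatives, against 1 of 23 with unadjusted p under 0.05 in the setting reported. The distance of a region from the start rests on the start that the gene list gives, most of all for *CTSH*. No paired analysis was possible because there was a single, unnumbered input library. Where a shared site had a BED peak it held 10 to 49 tags per replicate, and some shared sites had no BED peak in replicate 2. Depth thus limits any comparison between replicates.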
